A study of Mus musculus with 12 samples.

Results

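Genes of the endoplasmic reticulum (ER) stress response and the secretory pathway were examined in mouse B cell acute lymphoblastic leukemia (B-ALL) cells with and without the GSK3β inhibitor LY2090314. The 40 genes were chosen by name from a list of ER stress sensors, their transcription factors and targets, and the machinery that moves, folds, trims and degrades proteins of the ER. All 40 were matched to identifiers in the table of 41444 genes. A mean level of at least 3 on the scale of the deposited values was reached by 38 of them, among 11536 genes in all. The other two were *Derl3*, which lay near the bottom of the scale at 1.98, 1.56 and 1.89 in control samples and 1.56 in each treated sample, and *Spcs1*, which was listed at 0 in all 6 samples.

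Both groups were bone marrow pre-B cells from *Ctnnb1* fl/fl mice, whose β-catenin alleles are flanked by loxP sites. The cells were expanded in IL-7, transformed with a *BCR-ABL1* retrovirus and then deprived of IL-7. They carried the ERT2 vector without Cre, so that β-catenin could not be deleted, and received 1 µM 4-OHT, the active metabolite of tamoxifen, for 2 days. The control group had no further treatment in the labels (3 samples), and the treated group also received 40 nM LY2090314 for 1 day (3 samples), although a figure legend of the study gives a shorter exposure. The study describes the replicates as 3 mice. The control samples are named 1, 2 and 3 and the treated samples 14A, 14B and 15, after the numbers that open their column names. What these numbers stand for is not given. Samples 14A and 14B share a number, and whether they come from separate mice is not given. The values are regularized log2 (rlog) values of RNA-seq reads per gene, scaled for library size by the authors. A difference of 1 is a 2-fold change on this scale. Genes with few reads are shrunk towards their mean, so their changes and folds are understated. The values are not scaled for transcript length and do not rank genes against each other. No read counts came with the values, so the depth is unknown.

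The treatment was visible in genes outside the list. *Axin2*, a feedback target of β-catenin, rose by 1.67 on the log2 scale, *Myc* fell by 2.64 and *Ctnnb1* itself fell by 0.35. All 8 markers of B cell precursors listed were kept, of which 6 fell and 1 rose, against 25.3% lower and 24.8% higher among all genes tested. Their differences ran from −1.93 for *Rag1*, −1.42 for *Igll1* and −1.27 for *Vpreb1* to 0.64 for *Dntt*. The summed level of the list, as log2 of the added linear values, was 15.83 to 15.92 in control and 15.46 to 15.66 in treated samples. Defining markers of T cells (*Cd3e*, *Cd3g*, *Cd3d*, *Cd4* and *Cd8a*) were below 0 in every sample, *Mpo* and *Elane* of myeloid cells were listed at 0, and no stromal marker of 6 was kept. Summed levels add every gene of a list, also those not kept. The T cell list kept only *Lck*, with a summed level of 11.36 to 11.47 in control and 12.26 to 12.51 in treated samples. The myeloid list kept only *Lyz2*, and its summed level was 5.84 to 6.04 against 6.39 to 6.51. The erythroid list kept only *Hbb-bt*, and its summed level was 4.42 to 4.46 against 4.14 to 4.17. *Lyz2* alone was at 5.68 to 5.91 against 6.29 to 6.41, and *Hbb-bt* alone at 3.69 to 3.81 against 3.25 to 3.33. Their part in the results below was not tested. With bulk RNA, fewer cells of one kind and less RNA per cell cannot be told apart.

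Proteins destined for secretion or membranes enter the ER through the SEC61 channel, lose their signal peptide to the signal peptidase and are folded by chaperones and disulfide isomerases. When misfolded proteins build up, the sensors IRE1α (*Ern1*), ATF6 (*Atf6*) and PERK (*Eif2ak3*) start the unfolded protein response. IRE1α splices the *Xbp1* messenger RNA into the form that encodes the active factor, ATF6 is cleaved to release a factor that binds ER stress elements in chaperone promoters, and PERK slows translation while favouring that of *Atf4*. *Atf4* and its target CHOP (*Ddit3*) also respond to amino acid shortage. In the B lineage, *Xbp1* is best known for the expansion of the secretory apparatus in plasma cells.

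The promoter element most closely tied to this response, the ER stress element (ERSE), is shown first because the genes that hold it are set beside their changes below. It was searched as CCAAT and CCACG with 9 bases between them, on both strands, in the 250 bases before the start of transcription (RefSeq, GRCm38.p6). A promoter was given for 33 of the 40 genes. Of these, 6 held the element, against 0.113% of all 32851 promoters. The sequences are written 5′ to 3′ on the strand of the gene, with the paired motifs of the element in capitals. Where it lies on the opposite strand, they read CGTGG and ATTGG.

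*Calr* (chr8:84847055-84847113, minus strand): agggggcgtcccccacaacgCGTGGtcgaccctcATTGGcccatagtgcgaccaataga

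*Syvn1* (chr19:6046512-6046570, plus strand): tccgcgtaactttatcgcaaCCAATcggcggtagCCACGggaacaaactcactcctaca

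*Creld2* (chr15:88819500-88819558, plus strand): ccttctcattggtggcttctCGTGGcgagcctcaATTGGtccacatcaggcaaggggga

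*Pdia6* (chr12:17266471-17266529, plus strand): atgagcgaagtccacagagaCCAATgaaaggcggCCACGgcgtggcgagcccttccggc

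*Canx* (chr11:50325780-50325838, minus strand): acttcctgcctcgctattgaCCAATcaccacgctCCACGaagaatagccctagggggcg

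*Derl3* (chr10:75893222-75893280, plus strand): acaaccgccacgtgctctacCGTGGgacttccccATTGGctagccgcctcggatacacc

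A second form of the element, ATTGG and CCACG with 1 base between them, was found in the promoter of *Herpud1* and in 0.0304% of all promoters. The same promoter held an ATF4 element, TGATGCAA, on the opposite strand, where it reads TTGCATCA, as did that of *Chac1*, against 0.791% of all promoters. Both kinds are shown because they mark members described with the ERAD genes and the ATF4 targets.

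*Herpud1*, second form (chr8:94386357-94386407, plus strand): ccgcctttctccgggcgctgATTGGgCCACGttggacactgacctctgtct

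*Herpud1*, ATF4 element (chr8:94386297-94386344, plus strand): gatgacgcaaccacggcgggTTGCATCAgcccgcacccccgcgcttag

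*Chac1*, ATF4 element (chr2:119351029-119351076, plus strand): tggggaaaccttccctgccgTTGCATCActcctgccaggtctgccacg

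With LY2090314, 19 of the 38 genes kept rose and 6 fell (adjusted p under 0.05, limma with Benjamini-Hochberg adjustment over all 11536 genes), and 13 did not pass. These are 50% higher and 15.8% lower, where 24.8% of all genes tested were higher and 25.3% lower, and 50.1% in either direction. The median log2 difference was 0.19 over the 38 genes and 0.012 over all genes tested. The IRE1α gene *Ern1*, its substrate *Xbp1* and the mannosidase-like gene *Edem1* rose by more than 1 on the log2 scale, a size reached by 4.14% of all genes tested. The falls were smaller, from *Sdf2l1* (−0.52) to *Pdia6* (−0.28), and 4 of the 6 were chaperones or folding enzymes. The groups did not overlap in 28 genes (73.7%), against 58.6% of all genes tested. An exact two-sided permutation test of 3 samples against 3 cannot go below p = 0.10, so single genes rest on the limma fit. Since the replicates may share animals, the p-values measure the spread between these samples.

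**Figure D1:**
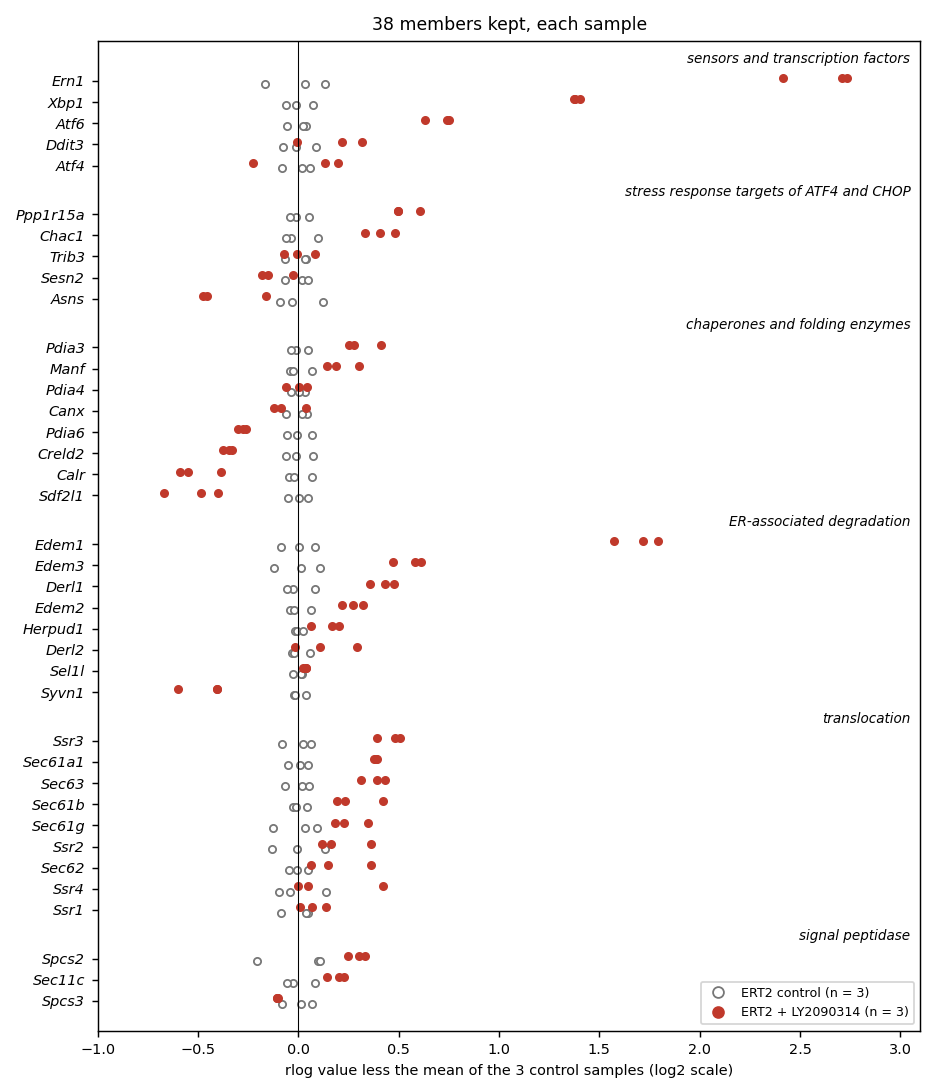
Values of the 38 genes kept in each sample, as the rlog value less the mean of the control samples (x axis, log2 scale), by role and then by size of the difference. Open circles are the 3 control samples and filled circles the 3 samples with LY2090314. *Ern1*, *Edem1* and *Xbp1* stand more than 1 above the control mean in every treated sample, and *Sdf2l1*, *Calr* and *Syvn1* lie below all controls.

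Among the 5 sensors and transcription factors, 3 rose (60%, against 24.8% of all genes tested), and *Atf4* and *Ddit3* did not pass. *Ern1*, which encodes the kinase and ribonuclease IRE1α (ENSMUSG00000020715, chromosome 11 of GRCm38, 106394650 to 106487852), was at 7.93, 7.83 and 7.63 in control samples and at 10.51, 10.53 and 10.21 in treated samples. All treated samples lay far above the controls, with the lowest values of each group in control sample 3 and treated sample 15. *Ern1* rose by 2.62 (standard error 0.11, adjusted p = 1.2e-06 from limma), or 6.15-fold, which ranked 68 among the rises of all genes tested.

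*Xbp1* (ENSMUSG00000020484, chromosome 11, 5520659 to 5525893), the transcript that IRE1α splices, was at 11.17, 11.13 and 11.26 in control and at 12.56, 12.57 and 12.59 in treated samples. The treated samples differed from each other less than the controls did. The rise was 1.39 (standard error 0.050, adjusted p = 5.5e-07 from limma), or 2.61-fold. Values per gene add the spliced and the unspliced form, so they do not give the share that was spliced. *Atf6* (chromosome 1, 170704674 to 170867771) went from 11.03, 11.02 and 10.94 to 11.75, 11.74 and 11.63, with no overlap, a rise of 0.71 (95% confidence interval 0.58 to 0.83, adjusted p = 2.2e-05 from limma). Cleavage of the ATF6 protein is likewise not seen in these values.

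*Atf4* (chromosome 15, 80255184 to 80257541) was at 11.18, 11.22 and 11.08 in control and at 11.36, 11.29 and 10.94 in treated samples. Treated samples 14A and 14B lay above the controls and sample 15 below them. The mean difference was 0.035 (95% confidence interval −0.21 to 0.28, adjusted p = 0.81 from limma). Without sample 15 it was 0.16 and passed (adjusted p = 0.041 from limma), so 1 library decides this call. *Ddit3*, which encodes CHOP, was at 5.40, 5.50 and 5.34 against 5.73, 5.63 and 5.41 and its groups overlapped. The *Ddit3* difference was 0.18 (95% confidence interval −0.074 to 0.43, adjusted p = 0.21 from limma). The exons of *Ddit3* overlap those of another entry of the same name on the same strand, and of *Mars* and *Gm4189* on the other strand. The effect of these overlaps on its values was not tested.

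The 5 targets of ATF4 and CHOP did not move as one. *Ppp1r15a*, which encodes the phosphatase subunit GADD34 that reverses the translation block, was at 6.90, 6.97 and 6.87 in control and at 7.52, 7.41 and 7.41 in treated samples, with no overlap. It rose by 0.53 (standard error 0.080, adjusted p = 0.00097 from limma). *Chac1*, a glutathione-degrading enzyme whose ATF4 element is printed above, was at 5.65, 5.63 and 5.79 against 6.17, 6.02 and 6.09. Its rise of 0.41 (adjusted p = 0.0068 from limma) separated the groups.

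*Asns*, asparagine synthetase, was at 11.07, 11.13 and 11.28 against 10.70, 10.68 and 11.00, with treated sample 15 closest to the controls. It fell by 0.36 (adjusted p = 0.014 from limma), and passed no longer without treated sample 14A (adjusted p = 0.052), with samples 14A and 14B counted as 1 (adjusted p = 0.051) or with no lower limit on the mean level (adjusted p = 0.053). *Trib3*, a pseudokinase induced by CHOP, was at 6.74, 6.63 and 6.73 against 6.69, 6.78 and 6.63, a difference of 0.0023 with a 95% confidence interval of −0.20 to 0.20. *Sesn2*, a stress-induced inhibitor of mTORC1 signalling, was at 7.99, 7.90 and 8.02 against 7.82, 7.79 and 7.94, a difference of −0.12 (adjusted p = 0.24 from limma). The groups of both genes overlapped. The median of the 5 targets was 0.0023, and it fell below 0 without control sample 2 (−0.032) or treated sample 14B (−0.039).

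**Figure D2:**
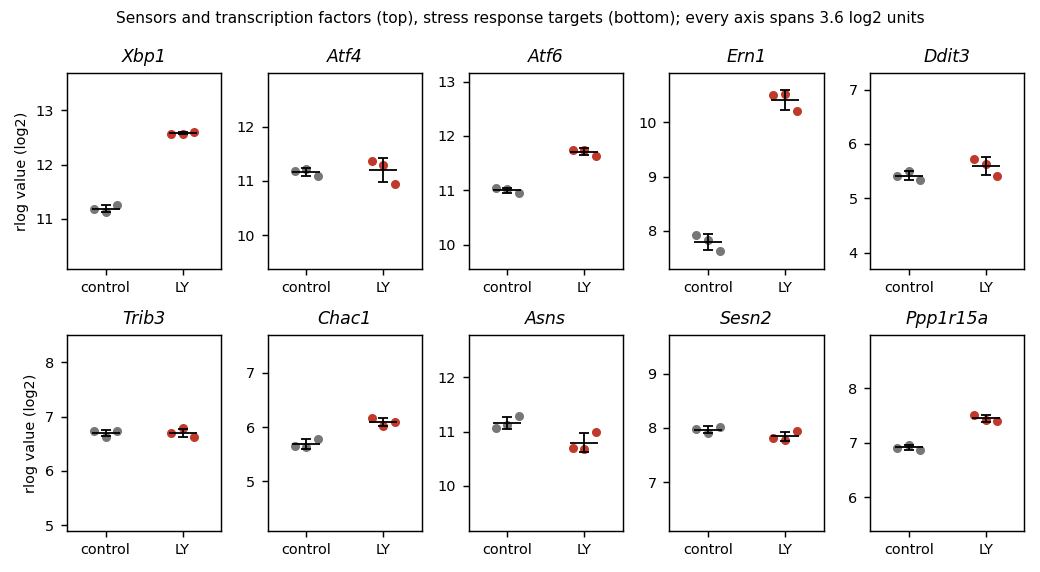
rlog values (y axis, log2 scale, every axis spanning the same range) of the sensors and transcription factors and of the ATF4 and CHOP targets in control and LY2090314-treated (LY) samples. Points are samples, and bars show the mean and SD of 3 samples. *Ern1*, *Xbp1* and *Atf6* separate clearly, whereas treated values of *Atf4* spread above and below the controls.

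Of the 8 chaperones and folding enzymes, 4 fell (50%), 2 rose (25%) and 2 did not pass, with a median of −0.17. Among all genes tested, 25.3% were lower and 24.8% higher. *Sdf2l1*, a partner of the ER chaperone BiP, was at 9.34, 9.39 and 9.44 in control and at 8.91, 8.72 and 8.99 in treated samples. *Calr*, the lectin chaperone calreticulin (chromosome 8, 84841850 to 84846934), was at 13.44, 13.47 and 13.56 against 12.94, 12.90 and 13.10. Neither gene overlapped between groups. *Sdf2l1* fell by 0.52 (standard error 0.080, adjusted p = 0.0011 from limma), and *Calr* fell by 0.51 (standard error 0.068, adjusted p = 0.00053 from limma), a 1.42-fold lower level.

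*Creld2*, an ER protein induced by stress, was at 8.56, 8.51 and 8.64 against 8.22, 8.24 and 8.19 and fell by 0.35 (adjusted p = 0.0034 from limma). *Pdia6*, a disulfide isomerase, fell by 0.28 (adjusted p = 0.0019 from limma). In the opposite direction, *Pdia3*, the isomerase that works with calreticulin and calnexin, was at 12.77, 12.74 and 12.83 against 13.06, 13.03 and 13.19. It rose by 0.31 (adjusted p = 0.0031 from limma), and the groups of these genes did not overlap. *Manf*, a secreted ER stress factor, rose by 0.21 (adjusted p = 0.018 from limma), but did not pass without control sample 1 (adjusted p = 0.062) or control sample 2 (adjusted p = 0.069). Its exons overlap *Rbm15b* on the same strand. The isomerase *Pdia4* (−0.0051, 95% confidence interval −0.12 to 0.11) and the lectin chaperone calnexin, *Canx* (−0.057, 95% confidence interval −0.21 to 0.096), did not pass.

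ER-associated degradation (ERAD) pulls misfolded proteins out of the ER for the proteasome. Of the 8 ERAD genes kept, 5 rose (62.5%) and 1 fell (12.5%), with a median of 0.21. Among all genes tested, 24.8% were higher and 25.3% lower. *Edem1*, which marks misfolded glycoproteins for removal (chromosome 6, 108828641 to 108859356), was at 10.90, 10.82 and 10.73 in control and at 12.53, 12.61 and 12.39 in treated samples. It rose by 1.69 (standard error 0.071, adjusted p = 1.2e-06 from limma), or 3.24-fold. Its relative *Edem3* was at 10.09, 10.00 and 9.86 against 10.60, 10.57 and 10.46 and rose by 0.56 (adjusted p = 0.00041 from limma), and *Edem2* rose by 0.27 (adjusted p = 0.0051 from limma). All 3 separated the groups, and *Edem1* had the largest difference.

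*Derl1*, a membrane protein of the retrotranslocation complex, was at 10.54, 10.52 and 10.66 against 11.00, 10.93 and 11.05 and rose by 0.42 (adjusted p = 0.00054 from limma). *Syvn1*, the ubiquitin ligase HRD1 at the core of ERAD, was at 11.73, 11.79 and 11.74 against 11.35, 11.35 and 11.16. It fell by 0.47 (standard error 0.062, adjusted p = 0.00051 from limma), with sample 15 lowest, and an exon overlaps *Mrpl49* on the other strand. Its cofactor *Sel1l* was at 11.22 in control and 11.25 in treated cells on average, a difference of 0.033 (95% confidence interval −0.063 to 0.13). *Herpud1*, a stress-induced HRD1 partner, rose by 0.15 (adjusted p = 0.045 from limma), a call that 10 of 12 alternatives did not keep (adjusted p from 0.0077 to 0.16 over all 12). *Derl2* did not pass (0.13, adjusted p = 0.24).

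The genes of the entry channel were higher or did not pass. Of 9 translocation genes, 5 rose (55.6%) and none fell in the limma fit, with differences from 0.073 for *Ssr1* to 0.46 for *Ssr3*. The shares of all genes tested were 24.8% higher and 25.3% lower, or 50.1% in either direction. *Ssr3*, a subunit of the translocon-associated protein complex, was at 12.02, 11.98 and 11.88 against 12.44, 12.47 and 12.36 (adjusted p = 0.00033 from limma). *Sec61a1*, the pore of the channel, was at 11.86, 11.92 and 11.96 against 12.29, 12.30 and 12.29 and rose by 0.38 (adjusted p = 0.00027 from limma). *Sec63*, which recruits BiP to the channel, was at 11.24, 11.28 and 11.16 against 11.54, 11.66 and 11.62 and rose by 0.38 (adjusted p = 0.00075 from limma). Neither overlapped between groups.

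The small subunits rose less. *Sec61b* was at 10.50, 10.51 and 10.57 against 10.76, 10.72 and 10.95 and rose by 0.28 (adjusted p = 0.0096 from limma), with treated sample 15 highest. *Sec61g* rose by 0.25 (adjusted p = 0.035 from limma), a call that 8 of 12 alternatives lost (adjusted p from 0.031 to 0.11 over all 12). *Sec62*, *Ssr1*, *Ssr2* and *Ssr4*, of the same channel and complex, did not pass, with differences from 0.073 to 0.21.

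Signal peptidase was measured by 3 genes. *Spcs2* was at 7.75, 7.76 and 7.44 in control and at 7.98, 7.89 and 7.95 in treated samples, with control sample 3 apart from the others. It rose by 0.29 (adjusted p = 0.043 from limma), a call that 10 of 12 alternatives lost (adjusted p from 0.037 to 0.12 over all 12). *Sec11c*, a catalytic subunit, was at 10.42, 10.39 and 10.53 against 10.59, 10.65 and 10.67 and rose by 0.19 (adjusted p = 0.021 from limma), a call lost without control sample 1, control sample 2 or treated sample 14B (highest adjusted p 0.089). *Spcs3* was at 11.93, 11.88 and 11.78 against 11.76 in each treated sample, a difference of −0.10 (adjusted p = 0.12 from limma).

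The rest of the pathway was followed through 122 further genes in 7 lists, of which 116 were kept. Of these, 43 rose (37.1%) and 22 fell (19%), with a median of 0.071, where 24.8% of all genes tested were higher and 25.3% lower. The lower count was 14 without control sample 2, control sample 3 or treated sample 14A and 13 without treated sample 14B. The list of sensors and regulators held 6 rises (40%) and 3 falls (20%) among 15 genes. It held 1 fall without control sample 2, control sample 3 or treated sample 14B, and 5 changes in all without control sample 3. *Creb3l2*, an ER-bound factor related to ATF6, was at 6.54, 6.68 and 6.39 against 8.70, 8.56 and 8.55 and rose by 2.07 (standard error 0.098, adjusted p = 2.2e-06 from limma). *Wfs1*, an ER membrane protein and stress regulator, rose by 1.38 (adjusted p = 2.0e-05 from limma), and the third sensor, *Eif2ak3*, was chosen after its value was seen and rose by 0.83 (adjusted p = 0.00017 from limma).

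Of 20 further chaperones and folding enzymes, 11 rose (55%) and 1 fell (5%), against 24.8% higher and 25.3% lower among all genes tested. Of the 8 chaperones among the members, 25% were higher and 50% lower. These 2 lists thus went in opposite directions. The higher count of the 20 further genes was 7 without control sample 2 and 7 with median centring, and their lower count was 2 without treated sample 15. The ER chaperone genes *Hspa5* and *Hsp90b1* were not among the genes past the threshold. *Hspa5*, which encodes BiP, was at 13.33, 13.36 and 13.36 against 13.27, 13.28 and 13.32, a difference of −0.062 (95% confidence interval −0.17 to 0.047, adjusted p = 0.31 from limma). *Hsp90b1*, which encodes GRP94, was at 13.84, 13.77 and 13.77 against 13.67, 13.73 and 13.69, a difference of −0.10 (95% confidence interval −0.22 to 0.019, adjusted p = 0.14 from limma). Every treated sample of both genes lay below the controls, but neither difference passed. *Txndc11*, a thioredoxin domain protein, rose by 1.09 (adjusted p = 5.7e-06 from limma) and *Cnpy2* by 0.58 (adjusted p = 0.00061 from limma).

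Further ERAD genes rose in 11 of 18 cases (61.1%) and fell in 2 (11.1%), against 24.8% higher and 25.3% lower among all genes tested. The lower count was 0 without control sample 2, control sample 3, treated sample 14A or treated sample 14B, and 1 without treated sample 15. *Selenos*, a selenoprotein of the retrotranslocation complex, was at 9.05, 9.02 and 9.10 against 10.22, 10.30 and 10.35 and rose by 1.23 (adjusted p = 1.9e-06 from limma). The ubiquitin-conjugating enzyme *Ube2j1* rose by 0.53 (adjusted p = 0.00011 from limma). Of the 12 genes of the oligosaccharyltransferase, which attaches sugar chains to entering proteins, none rose in the limma fit and 3 fell (25%), close to the 25.3% lower among all genes tested. Without control sample 1 or treated sample 14B, 1 of them rose, and without control sample 1, 5 changed in all. *Rpn1* was at 12.27, 12.25 and 12.47 against 11.73, 11.74 and 11.97 and fell by 0.52 (adjusted p = 0.0016 from limma), and *Krtcap2* fell by 0.40 (adjusted p = 0.013 from limma). *Tusc3*, singled out after its values were seen, was at 4.03, 4.12 and 4.04 against 6.08, 4.10 and 7.42, and did not pass (95% confidence interval of the difference 0.18 to 3.42, adjusted p = 0.063 from limma). Treated sample 14B lay among the controls, while 14A and 15 lay far above them.

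Of 15 signal recognition and other targeting genes, 5 rose (33.3%) and 4 fell (26.7%), with 3 rises without control sample 2. The shares of all genes tested were 24.8% higher and 25.3% lower. *Srp14* of the signal recognition particle rose by 0.69 (adjusted p = 1.7e-05 from limma), and the tail-anchor receptor gene *Wrb* fell by 0.40 (adjusted p = 0.0098 from limma). Among 17 genes of COPII coats and ER exit, 5 rose (29.4%) and 2 fell (11.8%). The higher count was 3 without control sample 1, control sample 2 or treated sample 14B, and the lower count 1 without control sample 2 or treated sample 14B. The cargo adaptor *Sec24d* was at 8.13, 7.99 and 7.95 against 9.47, 9.48 and 9.29 and rose by 1.39 (adjusted p = 6.1e-06 from limma), and its paralog *Sec24a* rose by 0.62 (adjusted p = 0.00032 from limma).

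With a median of −0.11, 5 of the 19 other targets of ATF4 kept were higher (26.3%) and 7 lower (36.8%). The shares of all genes tested were 24.8% higher and 25.3% lower. The lower count was 4 without treated sample 14A. The lipoprotein receptor gene *Vldlr* was at 4.83, 4.61 and 4.95 against 8.97, 8.82 and 8.63 and rose by 4.01 (adjusted p = 2.8e-07 from limma). *Stc2*, a secreted glycoprotein, rose by 1.64 (adjusted p = 0.00011 from limma). Those that fell included the serine synthesis gene *Phgdh* (−0.67) and the mitochondrial enzyme gene *Pck2* (−1.12), which were chosen after their values were seen.

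**Figure D3:**
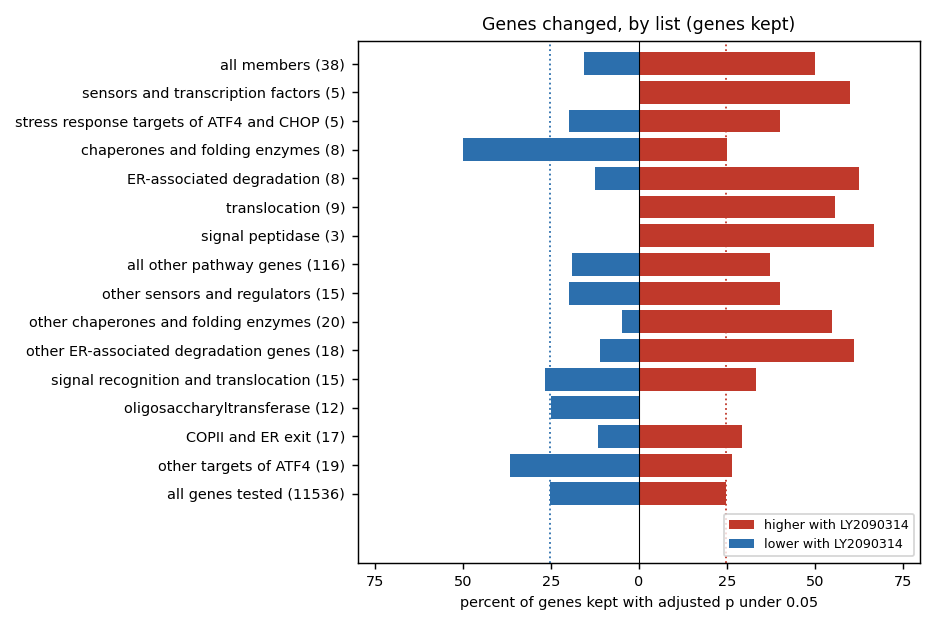
Percent of the genes kept in each list that were higher (right of 0) or lower (left of 0) with LY2090314 at an adjusted p under 0.05 (limma), with the number kept in parentheses. Dotted lines mark the shares of all genes tested, 24.8% higher and 25.3% lower. Of the 8 chaperones among the members 50% were lower, whereas of the 20 further chaperones 55% were higher and 5% lower. No oligosaccharyltransferase gene of 12 was higher in the main fit.

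Of the 6 genes with the ERSE letters printed above, 5 were kept, and none of them rose. Their differences were −0.51 for *Calr*, −0.47 for *Syvn1*, −0.35 for *Creld2*, −0.28 for *Pdia6* and −0.057 for *Canx*, with 4 falls in the limma fit. *Herpud1*, with the second form, is the weak rise given above. In the whole table, 13 genes kept had the element in this window, a count added after the members were seen, of which 5 fell, 2 rose and 6 did not pass, with a median of −0.13. Of all genes tested, 25.3% were lower and 24.8% higher. Of the 8 genes with the element that were not members, 1 fell, 2 rose and 5 did not pass. Among them, *Hspa5* and *Hsp90b1* did not pass, *Dnajc3* rose by 0.15 and *Adcy3* by 0.32, and *Hnrnpa3* fell by 0.56. A part of the element in these changes was not tested. No match to any of the 5 motifs searched was found for *Xbp1*, *Ern1* or *Edem1*. No promoter was given for 7 of the 40 members, which are not named here. Besides those named, the motifs were TGACGTGG, found in 0.563% of all promoters and in no member, and CACGTG, found in 6.02% and in *Calr*, *Derl3*, *Sec62* and *Ssr1*. CCACG, which is part of both ERSE forms, can overlap CACGTG and TGACGTGG. A match describes letters, not a bound site.

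**Figure D4:**
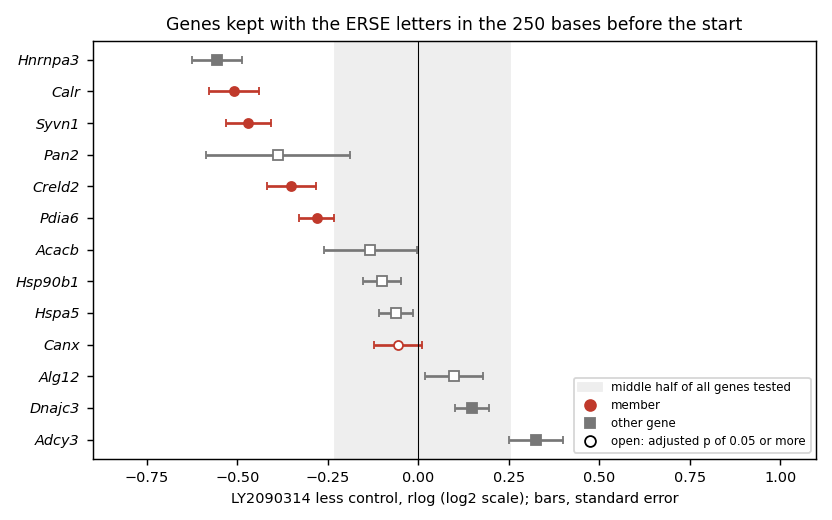
Difference between LY2090314-treated and control samples (x axis, log2 scale, with the standard error) for the 13 genes kept that hold the ERSE letters in the 250 bases before their start. Circles are members, squares other genes, open symbols did not pass, and the grey band spans the interquartile range of all genes tested. All 5 members lie below 0, from −0.51 to −0.057.

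Markers of plasma cells were split. Of 7, 6 were kept, 4 rose and 1 fell, against 24.8% higher and 25.3% lower among all genes tested, and the summed level of the list was 13.47 to 13.53 in control and 14.64 to 14.71 in treated samples. *Irf4*, at 12.69 to 12.78 against 14.11 to 14.21, weighs most in this sum, which therefore does not show a rise across the list. *Prdm1* rose by 4.46, *Irf4* by 1.41, *Slamf7* by 1.32 and *Jchain* by 0.31, while *Sdc1*, the surface marker of plasma cells, fell by 1.09 and *Tnfrsf17* stayed below 0 in every sample. *Tnfrsf13b* did not pass (−0.077). The part of these genes in the changes of the secretory pathway was not tested.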

How the data were processed

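The study sequenced polyadenylated RNA as stranded paired-end libraries of 4 groups of 3 samples. Transcript quantification by the authors used Salmon, alignment used STAR on GRCm38 (GENCODE vM24), and DESeq2 1.30.1 followed. The deposited table holds their log2 values, named as rlog values, in which counts are divided by size factors and genes with few reads are shrunk towards their mean, so changes of low genes are understated. Depth is unknown, and no count-based test was used.

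Columns were matched to groups by name. Of 12 columns, 6 were not used: their names join Cre and LY in different spellings, and none reads as untreated Cre-ERT2 cells. The names give no replicate numbers that match the sample titles.

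Genes with a mean of at least 3 over the 6 samples were fitted with limma 3.58.1 in R 4.3.3 (eBayes with a mean-variance trend, two-sided, Benjamini-Hochberg over 11536 genes, threshold 0.05), after a test on simulated data. Symbols were matched for 41157 of 41444 identifiers. Positions and overlaps come from GENCODE vM21 on GRCm38, and promoters from RefSeq (GRCm38.p6). Exons of 3 members overlap another gene on the same strand and those of 13 on the other strand. Protein ends were planned but not examined.

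Values in every sample are given for each sensor, factor and ATF4 or CHOP target, and for the 4 genes with the largest difference in each other role. In the further lists the 2 largest differences past the threshold are named, with *Hspa5* and *Hsp90b1*. Members and lists were chosen with earlier results of these data known. Alternatives were a fit without the trend, no lower limit or a limit of 5, median centring, quantile normalization, leaving out each sample, a log2 difference of at least 1, a threshold of 0.01 and, added later, samples 14A and 14B counted as 1.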

Additional observations from a re-analysis of the deposited data

How the results depend on the processing

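Of the 25 members past the threshold, 19 (14 higher and 5 lower) passed in the same direction in all 12 alternatives that kept a threshold of 0.05 without a limit on size. The other six were *Asns*, *Manf*, *Herpud1*, *Sec61g*, *Sec11c* and *Spcs2*. Of 13 members that did not pass, *Atf4*, *Sec62*, *Ssr2* and *Spcs3* passed in 1 alternative each. With a log2 difference of at least 1, 3 members passed, all 3 higher and 0 lower, against 693 genes overall (478 higher and 215 lower) and 9 of the other pathway genes (8 higher and 1 lower). With a threshold of 0.01, 37 of the other pathway genes passed (28 higher and 9 lower) instead of 65. With each sample left out in turn, 20 to 24 members passed, of which 14 to 18 were higher and 5 to 7 lower, and 46 to 68 other pathway genes, of which 32 to 44 were higher and 13 to 24 lower. The lower count was 14 without control sample 2, control sample 3 or treated sample 14A, and 13 without treated sample 14B. With samples 14A and 14B counted as 1, 21 members passed and 14 other pathway genes were lower.

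The median of all members was 0.17 to 0.24 with 1 sample left out. The median of the ATF4 and CHOP targets turned from 0.0023 to −0.083 with quantile normalization, −0.024 with median centring, −0.032 without control sample 2, −0.039 without treated sample 14B and −0.016 with samples 14A and 14B counted as 1. Quantile normalization moved that of the chaperones to −0.21, while the median of all genes moved to −0.037. Of genes past the threshold 43.4% were then higher, against 49.5%. The causes were not tested. No paired analysis was possible because the numbers in the column names are library numbers, which the titles do not share. Since depth is unknown, what it limits was not assessed.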

Other observations

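Control and treated samples departed from their group means in patterns that were alike for some pairs. Over the 38 members kept, Pearson's r of these deviations was 0.59 for control sample 3 with treated sample 15, and over all 11536 genes kept it was 0.34. Control sample 1 gave 0.58 with treated sample 14B (0.27 over all genes) and 0.39 with 14A (0.043). Control sample 2 gave 0.35 with 14A (0.14) and 0.22 with 14B (0.089). The other pairs were negative, from −0.57 to −0.34 over the members. Deviations within a group of 3 add to 0 and genes are not independent, so these values are a description only, and no pairs were formed from them. *Asns*, *Calr*, *Ssr4* and *Rpn1*, chosen after their values were seen, were each highest in sample 3 among controls and in sample 15 among treated samples.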
